A study of Homo sapiens with 8 samples.

Results

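The genes described here encode the enzymes, carrier and receptors that make, move, sense and break down prostaglandins, and they were chosen by name as a list of 10 genes. All 10 had a row among the 60564 genes kept from the deposited count table, and all 10 had enough counts to be tested. Expression was measured by sequencing of polyadenylated RNA in the human podocyte line AB8/13, which carries a heat-sensitive immortalising gene and was grown at 33 °C and then held at 37 °C for 5 days to differentiate. Knockdown of ATOH8 was represented by 4 libraries, from cells transfected with an shRNA against ATOH8, a basic helix-loop-helix transcription factor, and the control by 4 libraries whose cells were given a non-targeting shRNA. Number and sequence of the shRNAs are not stated, nor is whether the libraries of a group came from separate cultures, so each p-value speaks only of library-to-library spread, some of which may be technical.

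Prostaglandins are short-lived lipid signals made from arachidonic acid. A cytosolic phospholipase A2 frees arachidonic acid from membranes, a cyclooxygenase turns it into prostaglandin H2, and terminal synthases turn that into prostaglandin E2, prostacyclin and other products. The transporter SLCO2A1 takes prostaglandins up from outside the cell, HPGD inactivates them inside it, and receptors coupled to G proteins sense them at the surface. In the kidney these lipids act on glomerular blood flow, renin release and salt excretion, and podocytes are known to express cyclooxygenase and receptors for prostaglandin E2.

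Total counts ran from 21108695 to 27109043 per library, of which the 10 genes took 4521 to 4843 in knockdown libraries and 3232 to 4061 in control libraries. ATOH8 itself, on chromosome 2, had 51 to 71 counts in knockdown libraries and 122 to 175 in control libraries, or 2.43 ± 0.33 CPM in knockdown and 5.83 ± 0.66 CPM in control (SD, n = 4 each), which left 41.7% of the control level (log2 -1.26, SE 0.127, edgeR adjusted p = 1.78e-09). CPM is the count of a gene scaled to the total of its library, after TMM adjustment. Of the genes that mark podocytes, NPHS1, which encodes nephrin, was close to absent, with 2 to 6 counts in knockdown libraries and 0 to 2 in control libraries, whereas the transcription factor gene WT1 had 108 to 147 counts in knockdown libraries and 112 to 167 in control libraries. Of 12 podocyte markers 7 were tested. KIRREL1 (log2 -0.36), CD2AP (log2 -0.26), PLA2R1 (log2 -0.65) and PODXL (log2 -0.29) fell, SYNPO (log2 0.53) and NES (log2 1.01) rose, and WT1 was not called. The summed level of the 12 was 726 to 771 CPM in knockdown libraries and 900.4 to 934 CPM in control libraries, most of it from KIRREL1, and its part in the changes of the prostaglandin genes was not tested. In bulk RNA of this kind, fewer cells of a type and less RNA per cell cannot be told apart.

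Knockdown libraries had less RNA of PLA2G4A, both cyclooxygenase genes, the prostaglandin E synthase genes PTGES and PTGES2, and the transporter gene SLCO2A1. They had more RNA of PTGIS, the gene of prostacyclin synthase. Of the 10 genes, 6 were lower, 2 were higher and 2 did not pass the test (edgeR quasi-likelihood test, adjusted p under 0.05 over all genes tested). Of all 16884 genes tested, 25.9% were called lower and 25.2% higher, together 51.1%, so that a call on its own is common in these data. The groups did not overlap for 8 of the 10 genes, against 45.6% of all genes tested. The median log2 fold change was -0.43 over the 10 genes and 0.00 over all genes tested, where the median absolute change was 0.19.

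**Figure D1:**
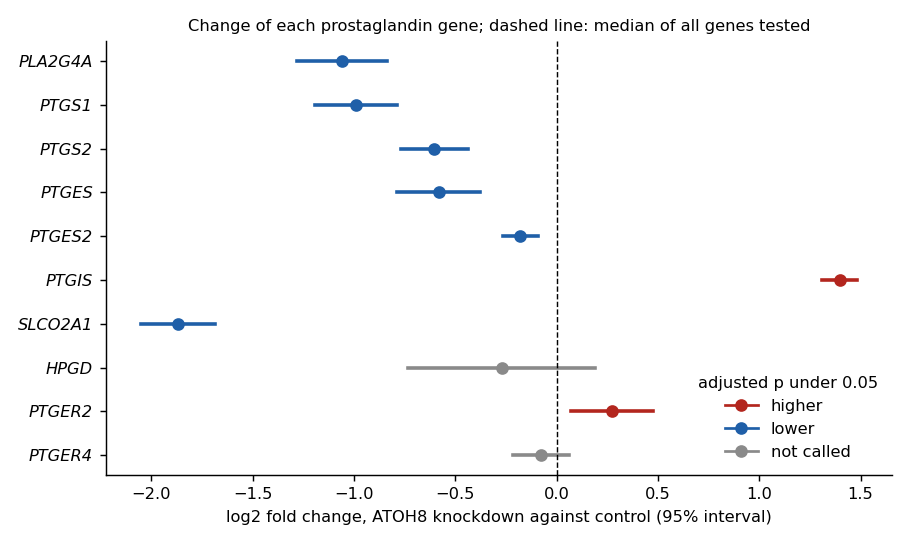
Log2 fold change of ATOH8 knockdown against control for each of the 10 genes (points) with an interval of 1.96 SE to either side (lines), coloured by call. SLCO2A1 lies at -1.87 and PTGIS at 1.40, and the intervals of HPGD and PTGER4 cross 0.

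PLA2G4A, the listed gene for the first step, release of arachidonic acid, fell to 47.7% of its control level. PLA2G4A (ENSG00000116711.10, chromosome 1) encodes the cytosolic phospholipase A2 that prefers arachidonate. It had 2.92, 3.93, 3.14 and 3.26 CPM in knockdown libraries, against 5.92, 7.02, 7.56 and 7.30 CPM in control libraries. Each knockdown library was below each control library, and the mean was 3.31 ± 0.43 CPM in knockdown and 6.95 ± 0.72 CPM in control (SD, n = 4 each). The log2 fold change was -1.06 (SE 0.114, edgeR adjusted p = 6.44e-09).

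Both cyclooxygenase genes fell. PTGS1 (ENSG00000095303.17, chromosome 9), the cyclooxygenase that most tissues express without stimulation, had 4.26, 4.08, 4.30 and 3.30 CPM in knockdown libraries, against 7.35, 8.33, 8.32 and 7.72 CPM in control libraries. The groups were well apart, with the highest knockdown library below the lowest control library, and the mean in knockdown was 50.3% of that in control (log2 -0.99, SE 0.103, edgeR adjusted p = 3.07e-09). PTGS2 (ENSG00000073756.12, chromosome 1), the inducible cyclooxygenase of inflammation, had 6.75, 7.85, 7.27 and 6.45 CPM in knockdown libraries, against 10.5, 9.98, 10.9 and 11.7 CPM in control libraries. Its groups did not overlap either, and the mean in knockdown was 65.7% of that in control (log2 -0.60, SE 0.084, edgeR adjusted p = 6.48e-07).

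The balance of the cyclooxygenase genes was also read within each library. Counts of PTGS2 were 1.59 to 1.95 times those of PTGS1 in knockdown libraries and 1.20 to 1.51 times in control libraries. The mean log2 ratio was 0.83 ± 0.15 in knockdown and 0.44 ± 0.15 in control (SD, n = 4 each), and the groups did not overlap. No test was made of this ratio. It does not compare the levels of the genes, whose transcripts differ in length.

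Of the terminal synthases among the 10 genes, PTGES and PTGES2, for prostaglandin E2, fell by different amounts, and PTGIS, for prostacyclin, rose. PTGES (ENSG00000148344.11, chromosome 9), the inducible microsomal prostaglandin E synthase that acts together with PTGS2, had 5.07, 4.71, 4.56 and 4.50 CPM in knockdown libraries, against 6.64, 6.87, 6.32 and 8.34 CPM in control libraries. The groups did not overlap, although control replicate 4 stood above the other control libraries (log2 -0.58, SE 0.104, edgeR adjusted p = 2.52e-05), and without that library the log2 fold change was -0.49. PTGES2 (ENSG00000148334.15, chromosome 9), a membrane-associated prostaglandin E synthase, had 40.9, 38.5, 39.1 and 37.4 CPM in knockdown libraries, against 45.3, 42.0, 44.3 and 45.0 CPM in control libraries. The difference was small but larger than the spread within either group (log2 -0.18, SE 0.044, edgeR adjusted p = 0.00103). Of all genes tested, 47.7% changed by less.

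PTGIS moved the other way and by far more than the other member that rose. PTGIS (ENSG00000124212.6, chromosome 20) is prostacyclin synthase, a cytochrome P450 enzyme that turns prostaglandin H2 into prostacyclin, the vasodilator best known from the vessel wall. It had 116, 110, 119 and 103 CPM in knockdown libraries, against 41.8, 40.6, 44.2 and 43.1 CPM in control libraries, which is 2.63 times the control mean (log2 1.40, SE 0.043, edgeR adjusted p = 5.2e-20). The lowest knockdown library was above the highest control library, and 314 of the 16884 genes tested, PTGIS included, rose by at least as much. PTGIS took 57.1% to 59.6% of all counts of the 10 genes in knockdown libraries and 27.4% to 28.8% in control libraries. Without it, the summed CPM of the other 9 genes was 77.2 to 82.9 in knockdown libraries and 105 to 114 in control libraries.

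**Figure D2:**
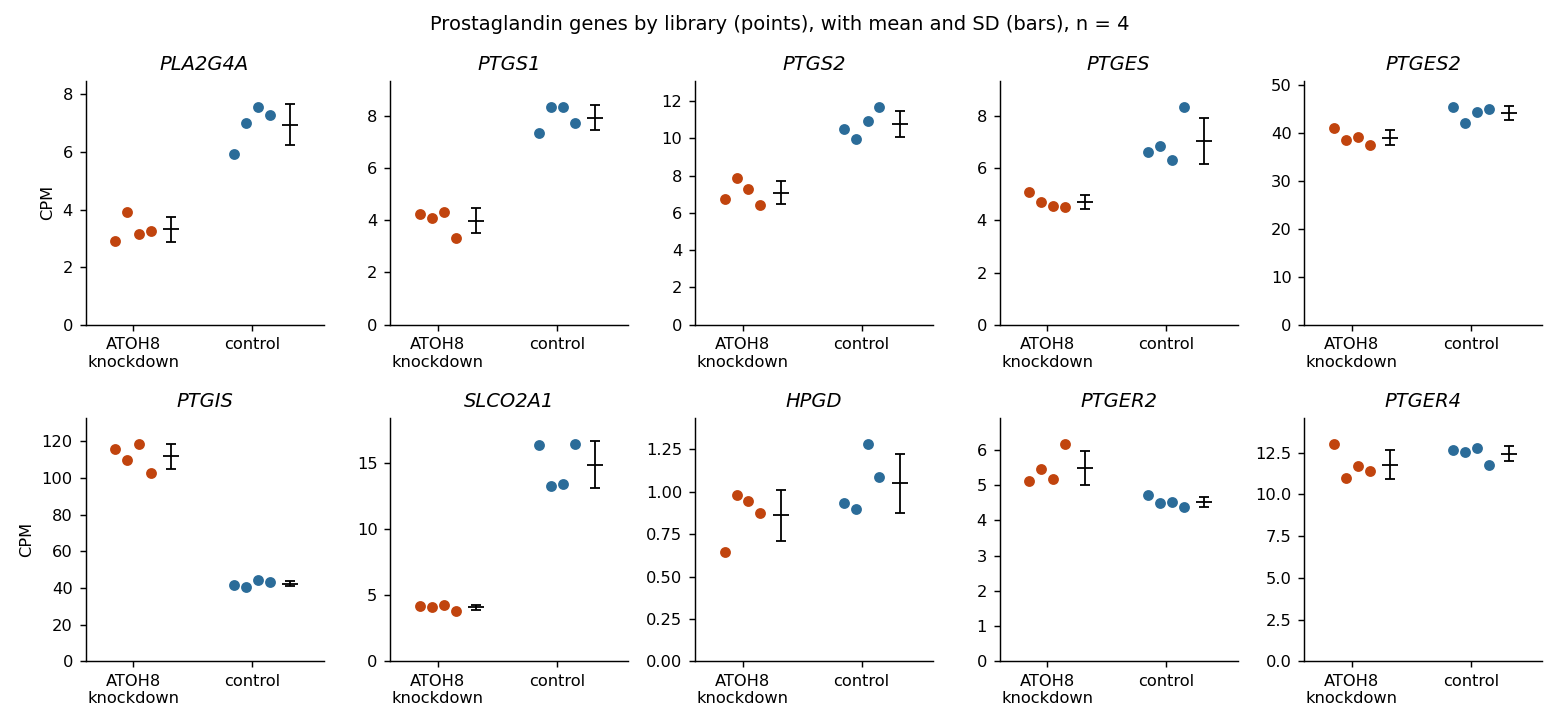
CPM of each of the 10 genes in the 4 knockdown libraries (left in each panel) and the 4 control libraries (right), with the mean and SD as bars and each axis starting at 0. The groups are apart for 8 genes and overlap for HPGD and PTGER4.

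Of the genes that clear prostaglandins, the transporter fell and the enzyme did not pass the test. SLCO2A1 (ENSG00000174640.14, chromosome 3), the prostaglandin transporter of the plasma membrane, had 4.17, 4.08, 4.26 and 3.82 CPM in knockdown libraries, against 16.4, 13.2, 13.4 and 16.5 CPM in control libraries. The knockdown libraries lay close together and far below the control libraries, at 27.5% of the control mean (log2 -1.87, SE 0.093, edgeR adjusted p = 5.61e-16), and 32 genes tested, SLCO2A1 included, fell by at least as much. HPGD (ENSG00000164120.14, chromosome 4), the hydroxyprostaglandin dehydrogenase that starts the breakdown of prostaglandins after uptake, had only 15, 25, 22 and 22 counts in knockdown libraries, against 25, 24, 27 and 28 counts in control libraries. The groups overlapped and the change did not pass the test (log2 -0.27, SE 0.236, edgeR adjusted p = 0.354). Its interval of 1.96 SE to either side ran from -0.73 to 0.19. PTGES counts were 4.80 to 7.87 times those of HPGD in knockdown libraries and 4.93 to 7.68 times in control libraries. These ranges overlap. Knockdown replicate 1, with 15 counts of HPGD, was at 7.87 and the other knockdown libraries at 4.80, 4.82 and 5.14. Control replicate 3 was at 4.93 and the other control libraries at 7.08, 7.63 and 7.68. With so few counts of HPGD, the ratio is uncertain in every library. The mean log2 ratio was 2.47 ± 0.34 in knockdown and 2.75 ± 0.30 in control (SD, n = 4 each), a difference of -0.28 that was not tested.

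Of the receptor genes 1 was called higher, by a small amount, and 1 did not pass the test. PTGER2 and PTGER4 encode the EP2 and EP4 receptors for prostaglandin E2, which raise cyclic AMP through the G protein Gs. PTGER2 (ENSG00000125384.7, chromosome 14) had 5.12, 5.46, 5.17 and 6.17 CPM in knockdown libraries, against 4.72, 4.50, 4.52 and 4.39 CPM in control libraries. Each knockdown library was above each control library, and the change was called (log2 0.27, SE 0.104, edgeR adjusted p = 0.0277). The call did not hold under DESeq2's Wald test (adjusted p = 0.0824), without a filter on low counts (0.068), without knockdown replicate 4 (0.118), or without control replicate 2 (0.0556), 3 (0.0505) or 4 (0.0658). PTGER2 lies on chromosome 14, whose 552 tested genes had a median log2 fold change of 0.17, with 272 of them higher and 41 lower, and the part of this shift in the change of PTGER2 was not tested.

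PTGER4 (ENSG00000171522.6, chromosome 5) had 13.0, 11.0, 11.7 and 11.4 CPM in knockdown libraries, against 12.7, 12.5, 12.8 and 11.8 CPM in control libraries. The groups overlapped, with the highest value in a knockdown library, and the change did not pass the test (log2 -0.08, SE 0.071, edgeR adjusted p = 0.369, interval of 1.96 SE from -0.22 to 0.06). Counts of PTGER4 were 1.85 to 2.55 times those of PTGER2 in knockdown libraries and 2.68 to 2.83 times in control libraries, so this ratio did not overlap between the groups. No test was made of it. PTGER4 lies on chromosome 5, where the median of 770 tested genes was -0.13, with 93 of them higher and 347 lower. The part of this shift in the result for PTGER4 was not tested.

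**Figure D3:**
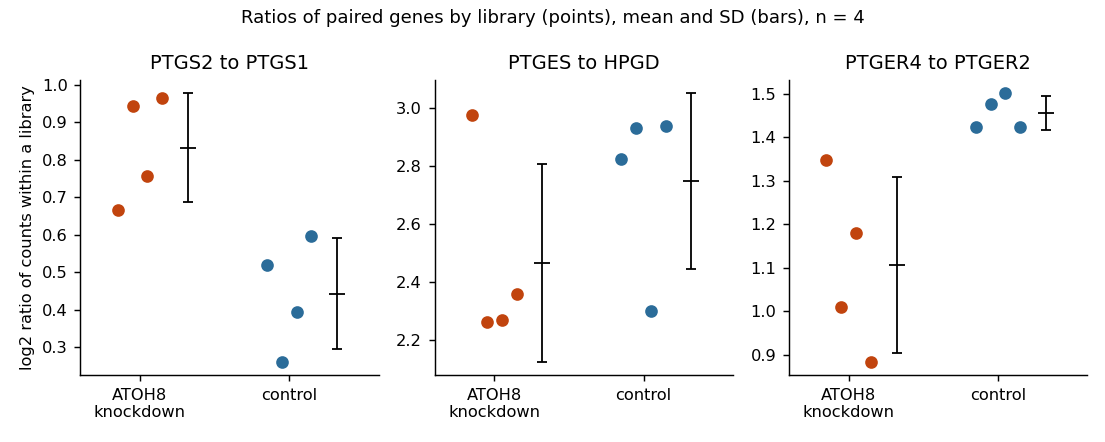
Log2 ratio of counts within each library for 3 pairs of genes, with the 4 knockdown libraries left and the 4 control libraries right in each panel and bars for mean and SD. The PTGS2 to PTGS1 and PTGER4 to PTGER2 ratios are apart between the groups, and the PTGES to HPGD ratio overlaps. Axes do not start at 0.

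Levels of different genes were compared only as CPM per kilobase of annotated exons. In knockdown libraries PTGIS was the highest at 20.0 ± 1.25, followed by PTGES2 at 12.8 ± 0.49, and in control libraries PTGES2 was the highest at 14.5 ± 0.50, followed by PTGIS at 7.61 ± 0.28 (SD, n = 4 each). PTGER4 stood at 2.97 ± 0.22 in knockdown and 3.14 ± 0.12 in control, and PTGES at 2.49 ± 0.14 and 3.71 ± 0.47 in the same order of groups. PTGS2 per kilobase was 1.34 ± 0.12 in knockdown and 2.05 ± 0.14 in control, above PTGS1 at 0.69 ± 0.08 in knockdown and 1.37 ± 0.08 in control. SLCO2A1 was second from the bottom in knockdown at 0.42 ± 0.02, while in control, at 1.51 ± 0.18, it lay within the SDs of PTGS1. HPGD was the lowest in both groups, at 0.16 ± 0.03 in knockdown and 0.19 ± 0.03 in control. Neighbours whose levels lay within the sum of their SDs were PTGES with PTGER2 and PTGS2 with PLA2G4A in knockdown, and PTGES with PTGER4, PLA2G4A with PTGS2 and SLCO2A1 with PTGS1 in control. The order was the same with the length of the longest transcript in place of the union of exons, which put HPGD at 0.285 in knockdown and 0.348 in control.

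**Figure D4:**
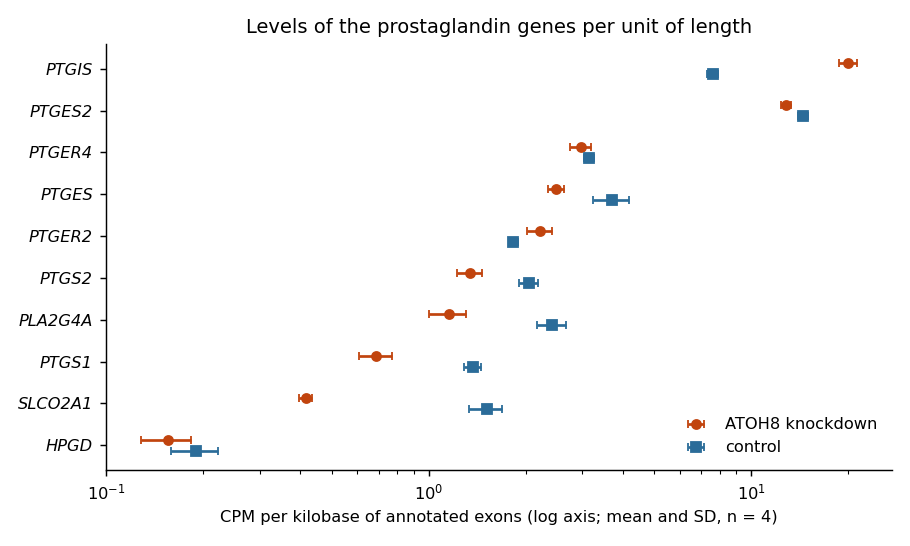
CPM per kilobase of annotated exons for the 10 genes on a log axis, with knockdown (circles) above control (squares) in each row and bars for the SD over 4 libraries. PTGIS is first in knockdown and PTGES2 is first in control.

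PTGS2 and PLA2G4A, which act in sequence and which both fell, are also neighbours on chromosome 1. They are transcribed away from each other, with 0 protein-coding genes and 1 noncoding gene, PACERR, annotated between them in GENCODE 29. PACERR had 1, 4, 2 and 2 counts in knockdown libraries, against 5, 8, 3 and 7 counts in control libraries, too few to test. Chromosome 1 had a median log2 fold change of -0.04 over 1668 tested genes, of which 34.1% were called lower. PTGS1, PTGES and PTGES2, which all fell, lie on chromosome 9, where the median of 689 tested genes was 0.03 and 20.8% were called lower.

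Promoter sequences are shown for PTGS2, PLA2G4A and PTGES, which fell, but not for PTGS1 and PTGES2, which fell too. They are the 250 bases before the annotated start, from RefSeq on GRCh38.p14, at chr1:186680424-186680673 on the minus strand for PTGS2, chr1:186828699-186828948 on the plus strand for PLA2G4A and chr9:129753043-129753292 on the minus strand for PTGES. Each is written 5′ to 3′, and capitals mark matches on either strand to an E-box (CANNTG), the letters that helix-loop-helix factors bind, to the core of a cyclic AMP response element (TGACG), to a TATA box (TATAAA) and to an NF-kB pattern of 3 G, any 5 bases and 2 C.
PTGS2: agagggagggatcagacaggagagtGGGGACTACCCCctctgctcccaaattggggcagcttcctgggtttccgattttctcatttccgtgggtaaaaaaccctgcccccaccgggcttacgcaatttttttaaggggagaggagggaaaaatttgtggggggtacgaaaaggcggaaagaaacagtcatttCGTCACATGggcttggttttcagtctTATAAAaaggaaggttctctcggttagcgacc
PLA2G4A: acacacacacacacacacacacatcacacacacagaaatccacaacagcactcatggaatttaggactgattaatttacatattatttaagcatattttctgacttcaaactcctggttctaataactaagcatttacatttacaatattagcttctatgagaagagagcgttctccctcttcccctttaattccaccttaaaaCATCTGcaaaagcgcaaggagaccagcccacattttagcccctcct
PTGES: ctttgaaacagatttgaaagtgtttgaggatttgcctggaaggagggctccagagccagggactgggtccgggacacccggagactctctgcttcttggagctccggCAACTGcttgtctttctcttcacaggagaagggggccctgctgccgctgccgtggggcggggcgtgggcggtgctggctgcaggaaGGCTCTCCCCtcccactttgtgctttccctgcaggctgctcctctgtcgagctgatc

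The PTGS2 window held all 4 motifs. Its TATA box began 32 bases before the start, its cyclic AMP core 58 bases and its E-box 55 bases before the start, so that these last motifs share 2 bases, and 3 overlapping NF-kB matches began 225 to 223 bases before it. PLA2G4A held only an E-box, 46 bases before the start, and PTGES held an E-box at 143 bases and an NF-kB match at 57 bases. The motifs are common: of 35116 windows of this length, 61.8% held the E-box, 54.4% the NF-kB pattern, 21.2% the cyclic AMP core and 10.7% the TATA box. Windows were found for 8 of the 10 genes, 12 in all, and 7, 9, 3 and 2 of them held these motifs in the same order. Among the genes whose windows are not printed, PTGS1, which fell, and PTGER4, which was not called, held no E-box. An E-box was found for PTGES2, which fell, for PTGER2, which was called higher, and for HPGD, which was not called. SLCO2A1 and PTGIS had no entry. A match is a match of letters and not a measured binding site.

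Other enzymes that act on prostaglandins fell more often than they rose. Of 14 other prostanoid synthases and reductases 12 were tested, and 8 fell, 1 rose and 3 were not called (median log2 fold change -0.31). AKR1B1 and AKR1C3, aldo-keto reductases that can make prostaglandin F2 alpha, fell, AKR1B1 to 787 ± 34.8 CPM in knockdown libraries, against 1225 ± 33.6 CPM in control libraries (log2 -0.64, SE 0.034, edgeR adjusted p = 1.66e-15), and AKR1C3 to 3.01 ± 0.34 CPM, against 7.59 ± 0.39 CPM (log2 -1.33, SE 0.107, edgeR adjusted p = 2e-11). AKR1C3 has near-identical relatives, so its counts are less certain. AKR1C1 and AKR1C2, such relatives, are also among the 8 that fell, so these falls may not be separate. AKR1C1 had 24 to 44 counts in knockdown libraries and 41 to 69 in control libraries, and its groups overlapped. AKR1C2 had 2 to 19 counts in knockdown libraries and 29 to 41 in control libraries. Of all genes tested, 25.9% were called lower and 25.2% higher. PTGR1, a reductase of prostaglandin breakdown, fell (log2 -0.28, SE 0.038), and PTGR2, another such reductase, rose (log2 0.43, SE 0.073). PTGES3, another prostaglandin E synthase, fell to 298 ± 17.9 CPM in knockdown libraries, against 338 ± 8.56 CPM in control libraries (log2 -0.18, SE 0.036, edgeR adjusted p = 0.000126). The prostaglandin D synthase genes PTGDS and HPGDS had at most 3 counts in any library.

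Of 12 other transporter genes 6 were tested, and 4 fell, 1 rose and 1 was not called (median log2 fold change -0.59). SLCO2B1, of the same family as SLCO2A1, fell to 1.27 ± 0.21 CPM in knockdown libraries, against 6.17 ± 0.19 CPM in control libraries (log2 -2.28, SE 0.136, edgeR adjusted p = 2.91e-14). SLCO4A1 (log2 -0.71, SE 0.044) and ABCC4 (log2 -0.48, SE 0.038), a pump known to export prostaglandin E2, fell too. SLCO3A1 rose, with 21 to 39 counts in knockdown libraries and 6 in each control library (log2 2.33, SE 0.292), and where at least 4 libraries had to reach 1 CPM it was not tested, which left 0 that rose.

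Of 8 other receptor genes and partners 4 were tested, and 2 rose, 1 fell and 1 was not called (median log2 fold change 0.20). The number that rose was 3 without a filter on low counts, without knockdown replicate 2 or 4, and without any 1 control replicate. PTGFR, the receptor for prostaglandin F2 alpha, fell to 9.54 ± 0.40 CPM in knockdown libraries, against 14.2 ± 0.88 CPM in control libraries (log2 -0.57, SE 0.071, edgeR adjusted p = 1.05e-07). PTGER1, the EP1 receptor for prostaglandin E2 (log2 0.80, SE 0.217, 30 to 39 counts in knockdown and 18 to 24 in control), and PTGFRN, a partner protein of PTGFR (log2 0.16, SE 0.031), rose. PTGIR, the receptor for prostacyclin, named after its values were seen, had 8 to 11 counts in knockdown libraries and 1 to 6 in control libraries and was not tested.

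Most other genes of arachidonate supply did not pass the test. Of 20 other phospholipase and arachidonate supply genes 14 were tested, and 4 rose, 1 fell and 9 were not called (median log2 fold change 0.01). PLA2G4C (log2 0.34, SE 0.063), PLA2G6 (log2 0.73, SE 0.132) and PLB1 (log2 0.72, SE 0.164), which encode other phospholipases, rose, and DAGLA, a diacylglycerol lipase, fell (log2 -0.40, SE 0.069). Without knockdown replicate 2 the number that fell was 2.

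Genes known to act upstream of PTGS2 went both ways. Of 20 cytokine, growth factor and signalling genes known as its inducers, all tested, 10 fell, 6 rose and 4 were not called (median log2 fold change -0.07). Those that fell with the smallest adjusted p were IL6 (log2 -0.32, SE 0.029), TNF (log2 -0.80, SE 0.076) and the NF-kB subunit gene NFKB1 (log2 -0.31, SE 0.034). JUN, a subunit of the AP-1 factor (log2 0.38, SE 0.033), TLR4, the endotoxin receptor (log2 0.67, SE 0.069), and TNFRSF1A, the main receptor for TNF (log2 0.25, SE 0.035), rose.

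**Figure D5:**
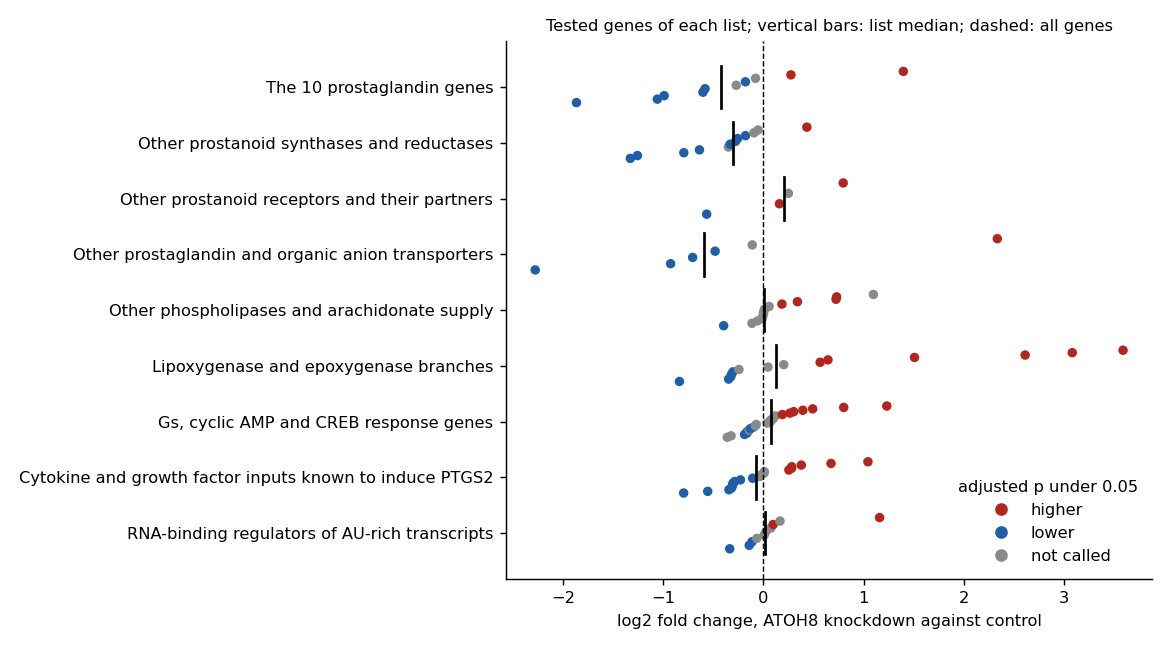
Log2 fold change of ATOH8 knockdown against control for each tested gene (points, coloured by call) of the 10 prostaglandin genes and of 8 related lists, with list medians as vertical bars and the median of all genes as a dashed line. The medians of the 10 genes (-0.43), the other synthases and reductases (-0.31) and the other transporters (-0.59) lie to the left.

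PTGIS and SLCO2A1 are also known from endothelial and mesenchymal cells, and markers of those cells moved between the groups. The summed level of 11 glomerular endothelial markers was 60.0 to 62.7 CPM in knockdown libraries and 39.6 to 42.8 CPM in control libraries, with 5 of 7 tested markers higher, while EMCN was at 0 in all libraries and PECAM1 had 0 counts in knockdown and at most 1 in control. The summed level of 11 mesangial and pericyte markers was 190 to 207 CPM in knockdown libraries and 97.2 to 102 CPM in control libraries, with 5 of 6 tested markers higher and 1 lower. The summed level of 11 leukocyte and platelet markers was 103 to 114 CPM in knockdown libraries and 76.9 to 87.4 CPM in control libraries, with 2 of 4 tested markers higher and GP9 at 0. For 8 parietal epithelial markers it was 2393 to 2474 CPM in knockdown and 2200.3 to 2249 CPM in control, with 4 of 7 tested markers higher and 1 lower. For 8 proximal tubule markers it was 3.397 to 3.90 CPM in knockdown and 5.78 to 7.99 CPM in control, with 1 of 3 tested markers higher, 1 lower and SLC22A6 at 0. The part of these markers in the changes of the prostaglandin genes, PTGIS and SLCO2A1 included, was not tested.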

How the data were processed

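RNA sequencing counts were compared between 4 ATOH8 knockdown and 4 control libraries. The authors deposited 1 table of whole-number counts per gene, with raw counts in 1 column per library. The submitters' processing notes name the tools FastQC, STAR, featureCounts and DESeq2 and the build hg19. Their versions, the gene annotation and the strand setting of the counting were not given in the sources used here. Per the labels' protocols the library kit keeps strand. Of 60609 rows, 1 with a missing cell and 44 pseudoautosomal copies on chromosome Y, all with 0 counts, were left out. The 10 genes share no annotated exon with another gene in GENCODE 29, which also gave exon lengths and chromosomes.

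Genes were filtered with edgeR's filterByExpr, scaled by TMM and tested with edgeR's quasi-likelihood F test (edgeR 4.0.16, limma 3.58.1, R 4.3.3), two-sided, with Benjamini-Hochberg adjustment over 16884 genes and 0.05 as the threshold. Fold changes are log2 of knockdown against control, and SE came from the F statistic. The fit was checked on simulated counts. The 10 genes, the 8 lists and the cell markers were chosen with earlier results of these data known. Of each list, up to 3 rising and 3 falling genes with the smallest adjusted p are named. PTGES3 is named besides, as a prostaglandin E synthase. AKR1C1 and AKR1C2, as relatives of AKR1C3, and the epoxygenase genes CYP2J2 and CYP2C8 are also named outside this rule. For SLCO2A1 and PTGIS the 3 genes with the highest correlation of log2 CPM are named, among genes with a mean of at least 2. Alternatives were DESeq2 size factors, DESeq2 1.42.0, other filters, total-count scaling, a replicate block, the omission of each library and another transcript length. Libraries of a group differed beyond sampling noise, with a chi-square per gene of 1.91 to 4.20.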

Additional observations from a re-analysis of the deposited data

How the results depend on the processing

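Of 139 fold changes of the 10 genes under the alternatives, 133 kept their direction and their side of the threshold, 0 reversed, and 6 lost the call, all of them for PTGER2. Its log2 fold change was 0.28 by DESeq2's Wald test (adjusted p = 0.0824) and 0.27 without a filter on low counts (0.068), and with 1 library omitted at a time its range was 0.21 to 0.31, with the call lost in 4 of those 8 fits. The number of genes of the list called higher was then 1 by DESeq2's Wald test and 1 without a filter, and 1 to 2 when 1 library was left out. The number called lower was 6 under every alternative run. HPGD was not tested under the filter of at least 1 CPM in 4 libraries. Among all genes, 3850 to 4545 were called higher and 3905 to 4466 lower. Whether the replicate numbers pair the libraries could not be settled. Deviations of same-numbered libraries correlated only weakly, at 0.00 to 0.06, yet 3 of the 4 knockdown libraries correlated best with their own number. With the replicate block, the log2 fold change was -1.86 for SLCO2A1 and 1.39 for PTGIS, and 2 of the 10 genes were called higher and 6 lower. Levels per kilobase moved for 11 of 20 values with the longest transcript as length, with no change of order; HPGD moved by the largest factor, to 0.285 in knockdown and 0.348 in control, against 0.156 in knockdown and 0.190 in control with the union of exons. Of 531 values for named genes of the other lists, 2 lost their call, both for ZFP36L1. Of the 224 counts of those lists, 5 moved by more than 1.5 times. HPGD, with 15 to 28 counts per library, is the gene that depth limits most.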

Other observations

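The other branches of arachidonate metabolism held some of the larger rises. The list of lipoxygenase and epoxygenase branches held 23 genes, among them receptors, hydroxylases, transferases and hydrolases. Of the 23, 14 were tested, and 6 rose, 5 fell and 3 were not called (median log2 fold change 0.12). Of its epoxygenase genes, CYP2J2 was not called (log2 -0.24, SE 0.138) and CYP2C8 was not tested. ALOX5, the lipoxygenase that starts leukotriene synthesis, rose to 8.79 ± 0.90 CPM in knockdown libraries, against 3.09 ± 0.41 CPM in control libraries (SD, n = 4 each, log2 1.51, SE 0.111, edgeR adjusted p = 2.78e-12), while ALOX5AP, the membrane protein that presents arachidonate to it, fell (log2 -0.35, SE 0.055). CYP4F2 (log2 2.61, SE 0.191) and CYP4F3 (log2 3.08, SE 0.207), hydroxylases of leukotrienes and fatty acids, rose, but they are close relatives whose reads may be shared. MGST3 (log2 -0.33, SE 0.039) and EPHX1 (log2 -0.30, SE 0.047), a glutathione transferase and an epoxide hydrolase, fell.

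Genes of the cyclic AMP route, which EP2 and EP4 use, went both ways. Of 23, all tested, 7 rose, 5 fell and 11 were not called (median log2 fold change 0.07), and DESeq2's Wald test called 3 lower. AREG, an EGF receptor ligand (log2 1.23, SE 0.115), the kinase gene SIK1 (log2 0.80, SE 0.095) and the adenylyl cyclase gene ADCY6 (log2 0.26, SE 0.038) rose, and CREB1 (log2 -0.19, SE 0.040), PRKACB (log2 -0.16, SE 0.043) and PRKAR1A (log2 -0.10, SE 0.033) fell. Of 10 RNA-binding genes known to act on AU-rich messages such as that of PTGS2, 2 rose, 3 fell and 5 were not called (median log2 fold change 0.02). Among them CELF2 rose (log2 1.16, SE 0.112) and HNRNPD (log2 -0.34, SE 0.031), TIAL1 (log2 -0.14, SE 0.035) and RBM3 (log2 -0.11, SE 0.033) fell. ZFP36L1 was called higher (log2 0.10, SE 0.031), a call that the omission of knockdown replicate 4 or control replicate 3 ends, which leaves 1 gene that rose.

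Over the 8 libraries the genes whose log2 CPM followed SLCO2A1 most closely were IER3, WSCD1 and CD83 (Pearson's r of 0.999, 0.998 and 0.996), and those that followed PTGIS were SDK1, FAT3 and ADAMTS14 (0.999, 0.998 and 0.998), among 12158 genes each. These values mostly restate the difference between the groups and are given as a description.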
